A study of Mus musculus with 6 samples.

Results

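The genes described here are 38 mouse genes that build the mitotic spindle, the kinetochore and the condensed chromosome, or that drive and close mitosis. They were chosen by symbol from a written list, which names the proliferation marker Mki67, the topoisomerase Top2a, the mitotic cyclins with their kinase Cdk1, the Aurora and Polo kinases, the chromosomal passenger complex, spindle checkpoint kinases, kinetochore proteins, spindle kinesins, cytokinesis factors and condensin subunits. All 38 were found among the 55401 genes of the count table, of which 30602 had a count in any library and 19554 were tested. All 38 had enough counts to be tested.

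The libraries were made from microglia taken from brains and selected for CD11b, a surface protein that microglia share with other myeloid cells. There were 3 libraries from MRL/lpr mice and 3 from MRL/mpj mice, all 6 weeks of age and untreated. Fas, a death receptor gene, carries the lpr mutation (an insertion within an intron) in MRL/lpr mice, and MRL/mpj mice have the same lupus-prone MRL background without it. CD11b selection keeps any myeloid cell that bears the protein, not microglia alone. The study gives its n for these profiles in mice, as many in each strain as there were libraries, while the labels tie no library to an animal and neither source says whether cells of several mice were pooled. The p-values measure the spread between these libraries.

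A cell that divides first copies its DNA, then condenses its chromosomes with condensin and topoisomerase II. It attaches them to spindle microtubules at the kinetochore, and waits at a checkpoint until every chromosome is attached. The anaphase-promoting complex (APC/C) with its activator Cdc20 then degrades securin and the B-type cyclins, the chromatids part, and the central spindle places the furrow that splits the cell. The mRNAs of most of these genes are low in resting cells and rise from late S phase to mitosis, through DREAM repressor complexes and the activators B-Myb and FoxM1, which act at short promoter elements that include the cell cycle genes homology region (CHR). Resting microglia seldom divide in the healthy adult brain.

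In MRL/lpr microglia, 36 of the 38 genes were higher than in MRL/mpj microglia at an adjusted p under 0.05 (from edgeR's quasi-likelihood fit, Benjamini-Hochberg over all genes tested), and 0 were lower. Of all tested genes 11.1% were higher and 9.06% lower in this way. With at least a 2-fold difference as well, 34 of the 38 were higher, beside 4.67% of all tested genes. The log2FC is the log2 fold change of MRL/lpr over MRL/mpj, and its median over the 38 was 1.73, a fold of 3.31, and that of all tested genes was -0.01. Single genes ran from 0.50 for Smc2 to 3.04 for Ncapg. Smc2 and Spc25 did not pass the test, and Cenpa and Smc4 passed it below a log2FC of 1.

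In 36 of the 38 genes each MRL/lpr library stood above each MRL/mpj library in CPM (counts scaled to library size, with TMM factors that set the typical gene level between libraries), a pattern shown by 19.6% of all tested genes. The other 2 were Smc2 and Spc25. With scaling by library size only, Cenpa and Ndc80 overlapped too, which left 34 genes without overlap. The CPM of the 38 genes summed to 616 ± 30.9 in MRL/lpr mice and 209 ± 4.26 in MRL/mpj mice (SD, n = 3), a ratio of 2.95. Their share of a library's counts was 0.0535% to 0.0628% in MRL/lpr mice and 0.0213% to 0.0223% in MRL/mpj mice. In bulk RNA such as this, fewer cells that express a gene and less RNA of that gene per cell cannot be told apart.

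**Figure D1:**
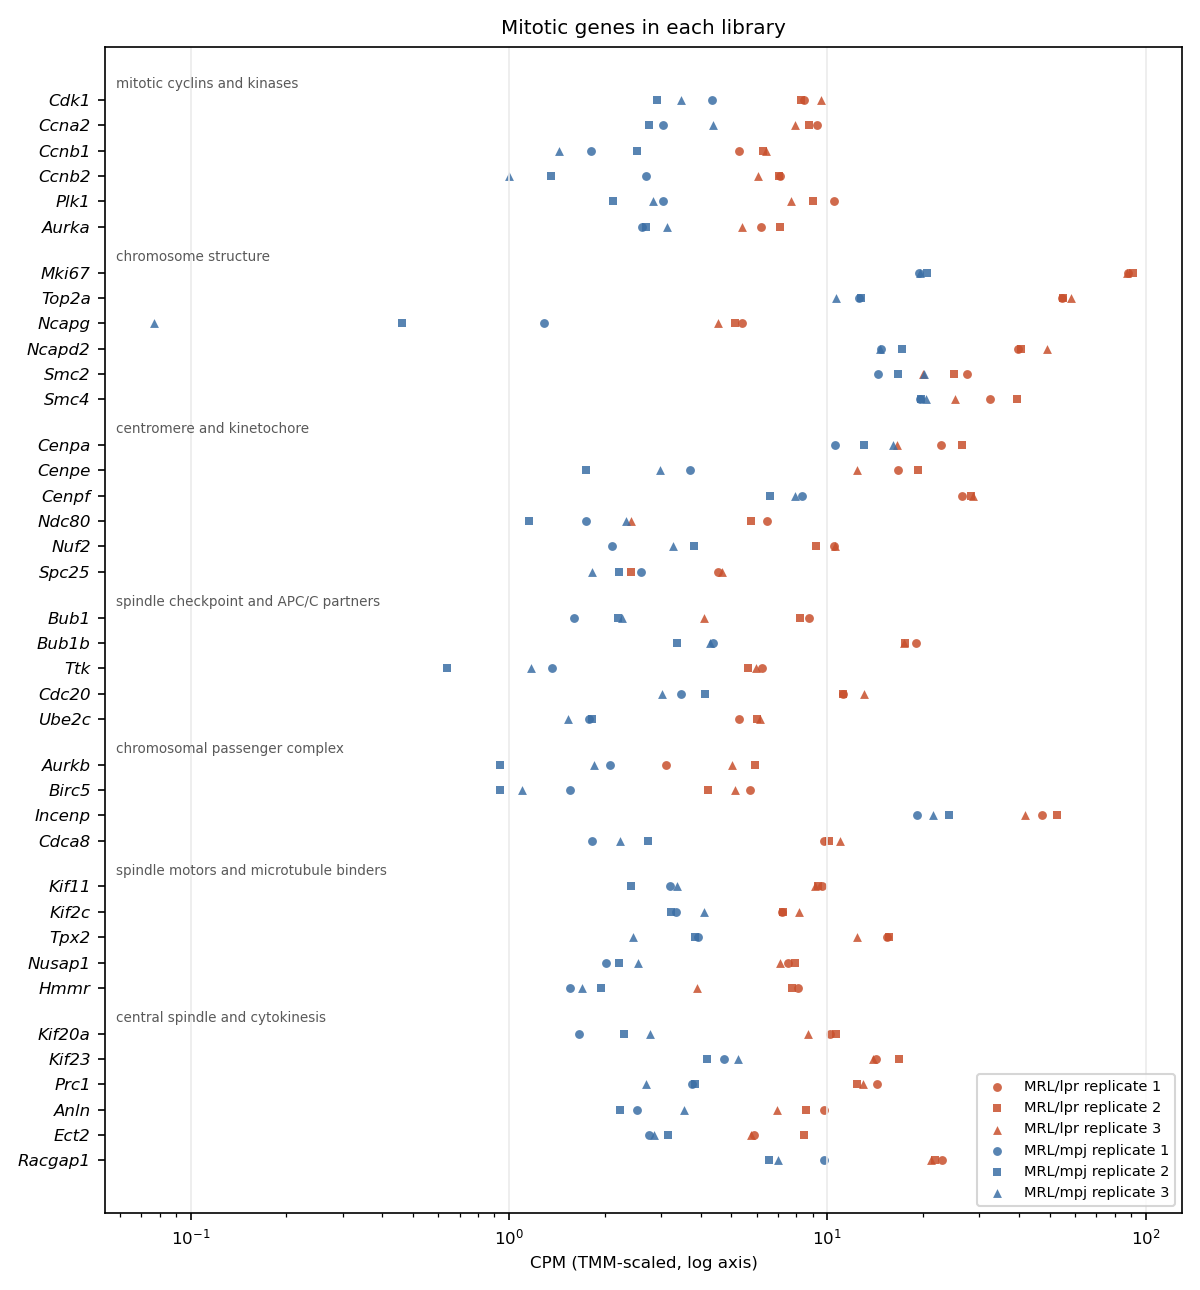
CPM scaled by TMM (log axis) of the 38 mitotic genes, grouped by role, in each of the 6 libraries; orange marks are MRL/lpr libraries, blue marks are MRL/mpj libraries, and the shape is the replicate. The orange marks lie to the right of the blue ones in 36 genes, and the strains overlap in Smc2 and Spc25.

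MRL/lpr libraries held 45481609 to 48199739 counts and MRL/mpj libraries 47826322 to 49846634. MRL/lpr replicate 3 stood apart in 1 transcript, CT010467.1, which took 6.38% of its counts and 0.169% to 0.457% of those of the other libraries, and mitochondrial genes took 3.06% to 3.49% of counts in MRL/lpr and 5.84% to 6.38% in MRL/mpj libraries. This library was also the lowest of the 3 MRL/lpr libraries for 23 of the 38 genes. The counts of Fas were 461, 282 and 298 in MRL/lpr and 426, 432 and 362 in MRL/mpj libraries (log2FC -0.06, edgeR adjusted p = 0.887), so the count over the whole gene did not check the labels. Microglia markers were high in both strains, at a summed 23727 to 26436 CPM in MRL/lpr and 28232 to 28784 CPM in MRL/mpj libraries, with 0 of 12 higher and 4 lower. Within this sum Cx3cr1 was at 2819 CPM in MRL/lpr replicate 2, and at 226 and 247 CPM in the other MRL/lpr libraries. In MRL/mpj libraries it was at 558 to 564 CPM. Olfml3 was at 503 CPM in MRL/mpj replicate 1, and at 1377 and 1333 CPM in the other MRL/mpj libraries.

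Some markers of other cells were also higher in MRL/lpr libraries. Of 12 T cell markers 8 were higher and 1, Il7r, was lower. Their sum was 88.6 to 98.1 CPM in MRL/lpr and 92.9 to 97.8 CPM in MRL/mpj libraries, of which Il7r was 67.2% to 93.8%. Without Il7r the sum was 21.7 to 29.6 CPM against 5.76 to 6.94 CPM, beside 582 to 643 CPM against 205 to 213 CPM for the 38 mitotic genes. The defining T cell gene Cd3e had 103, 92 and 120 counts in MRL/lpr and 2, 0 and 9 counts in MRL/mpj libraries. It had the largest fold of the 12 markers. Cd3d had 100, 76 and 99 against 64, 30 and 40 counts and did not pass the test (log2FC 1.22, edgeR adjusted p = 0.0501). Cd247 (log2FC 1.36) and Bcl11b (0.09) did not pass it either. Of 6 NK cell markers tested, 4 were higher, namely Gzma, Gzmb, Prf1 and Eomes. The whole list summed to 12.9 to 14.7 CPM against 3.40 to 4.73 CPM, with Klra8 at 0 in every library. Ncr1 (27, 25 and 0 against 7, 21 and 0 counts) did not pass the test. Nor did Klrb1c, which leaned the other way (23, 0 and 0 against 75, 16 and 82 counts). Of 10 B and plasma cell markers tested, 2 were higher, the immunoglobulin joining chain Jchain and the plasma cell chaperone Mzb1. Jchain was at 13.8 to 16.7 CPM against 0.807 to 1.44 CPM, and Mzb1 was at 0 in each MRL/mpj library. The whole list summed to 130 to 147 CPM against 103 to 119 CPM. Of that sum Xbp1, which did not pass the test, was 92.0 to 112 CPM against 82.9 to 96.1 CPM. Precursors of neutrophils, which divide in marrow, had 1 of 6 markers higher, Fcnb (129, 112 and 148 against 8, 0 and 12 counts), beside 11.1% of all tested genes. Elane, Mpo, Prtn3, Ctsg and Ms4a3 did not pass the test. The list summed to 13.1 to 20.8 CPM against 12.5 to 13.02 CPM, of which Mpo was 6.59 to 10.8 CPM against 7.88 to 8.70 CPM. These values stand beside every group of mitotic genes below, and their part in the results was not tested.

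Among the remaining lists, higher and lower markers numbered 3 and 1 of 7 for monocytes, 3 and 0 of 9 for neutrophils, 1 and 0 of 5 for erythroid cells, and 2 and 0 of 6 for endothelium. They numbered 0 and 2 of 8 for border macrophages, 0 and 2 of 8 for neurons, 0 and 1 of 6 for astrocytes, 0 and 2 of 6 for oligodendrocytes, and 0 and 3 of 6 for ependyma with choroid plexus. In MRL/lpr against MRL/mpj libraries, neutrophil markers summed to 722 to 843 against 573 to 638 CPM. Endothelial markers summed to 1938 to 2297 against 1704 to 1759 CPM. The sums were 685 to 1134 against 611 to 674 CPM for erythroid cells and 91.5 to 106 against 97.0 to 108 CPM for monocytes. Among dividing neural cells, oligodendrocyte precursors had 0 of 6 markers higher and 3 lower, at 10.8 to 15.2 CPM in MRL/lpr and 26.9 to 28.5 CPM in MRL/mpj libraries. Neuroblasts and neural progenitors had 0 of 4 higher and 1 lower, at 55.2 to 59.2 CPM and 91.3 to 104 CPM.

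Promoters were read for the letters of the CHR, TTTGAA or TTCGAA on either strand, in windows of RefSeq (GRCm38.p6) from 250 bases before to 50 bases after each annotated start. A window was given for 32 of the 38 genes (not for Aurkb, Ccna2, Incenp, Kif20a, Smc4 and Tpx2), and 27 of the 32 (84.4%) held the letters, as did 21.7% of 27025 genes with a window. Within 50 bases of the start the letters were found in 24 of the 32 (75%) and in 6.45% of all windows. The letters CCAAT on either strand, which can share at most 1 base with those of the CHR, were in 26 (81.2%) and in 41.1%. Both CCAAT and a CHR within 50 bases of the start were in 22 (68.75%) and in 2.76%. These matches are letters, not sites shown to bind a factor. The windows of Birc5, Ccnb1, Cenpe, Nuf2 and Nusap1 held no CHR letters, and all of these genes rose in MRL/lpr mice.

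**Figure D2:**
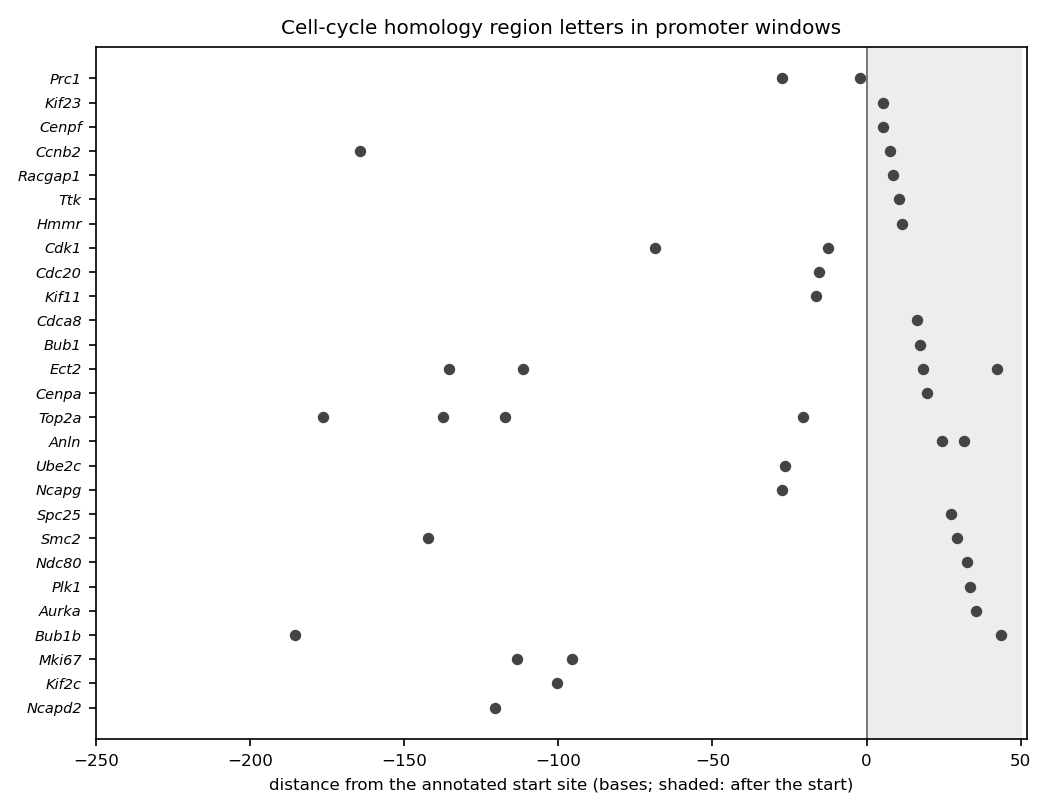
Distance from the annotated start (bases, negative before it, grey after it) of each match to TTTGAA or TTCGAA in the promoter windows of the 27 mitotic genes that hold one, sorted by the nearest match. For 24 of them a match lies within 50 bases of the start, and Mki67, Kif2c and Ncapd2 hold matches farther upstream only.

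The stretches below run from 120 bases before to 30 bases after the start and show the matches nearest the start in the cyclin and kinase, chromosome structure, and kinetochore groups. Capitals mark the CHR letters and the CCAAT box on either strand, so TTCAAA is a CHR read from the other strand and ATTGG such a box. Each stretch reads along the gene's own strand. They come from chr9:70421525-70421674 (minus strand) for Ccnb2, chr10:69352883-69353032 (minus) for Cdk1, chr11:99024160-99024309 (minus) for Top2a, chr5:45669805-45669954 (plus) for Ncapg, chr1:189688057-189688206 (minus) for Cenpf and chr5:30666766-30666915 (plus) for Cenpa.
Ccnb2: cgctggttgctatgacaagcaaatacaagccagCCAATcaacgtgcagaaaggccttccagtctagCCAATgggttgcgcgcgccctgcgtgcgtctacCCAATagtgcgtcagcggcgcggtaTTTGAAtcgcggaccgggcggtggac
Cdk1: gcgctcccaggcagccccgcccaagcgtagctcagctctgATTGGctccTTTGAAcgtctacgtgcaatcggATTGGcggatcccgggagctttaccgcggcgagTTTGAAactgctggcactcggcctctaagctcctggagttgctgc
Top2a: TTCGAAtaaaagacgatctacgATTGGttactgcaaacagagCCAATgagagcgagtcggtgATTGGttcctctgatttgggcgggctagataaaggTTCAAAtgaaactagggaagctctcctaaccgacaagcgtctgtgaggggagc
Ncapg: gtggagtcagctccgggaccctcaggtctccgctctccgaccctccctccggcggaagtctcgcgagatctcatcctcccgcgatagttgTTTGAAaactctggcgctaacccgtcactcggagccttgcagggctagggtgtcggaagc
Cenpf: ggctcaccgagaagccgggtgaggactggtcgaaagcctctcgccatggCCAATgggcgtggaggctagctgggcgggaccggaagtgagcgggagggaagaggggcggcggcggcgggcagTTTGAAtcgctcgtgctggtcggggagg
Cenpa: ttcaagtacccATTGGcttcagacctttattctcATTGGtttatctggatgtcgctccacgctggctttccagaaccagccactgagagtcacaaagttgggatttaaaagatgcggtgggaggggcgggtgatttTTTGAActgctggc
Ccnb2, Cdk1 and Top2a carry several CCAAT boxes upstream of the CHR letters nearest the start, Cenpf and Cenpa carry them farther from it, and the Ncapg stretch carries none. Among these 6 genes the log2FC ran from 0.73 for Cenpa to 3.04 for Ncapg.

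The cyclins and kinases that start mitosis rose together: 6 of 6 passed the test, with a median log2FC of 1.49. Cyclin B1 and B2 are the regulatory partners of Cdk1. Ccnb2 had 334, 331 and 253 counts in MRL/lpr and 138, 68 and 52 counts in MRL/mpj libraries (log2FC 1.999, SE 0.35, edgeR adjusted p = 0.00302). The lowest MRL/lpr library held 253 counts and the highest MRL/mpj library 138. Ccnb1 had 249, 295 and 268 counts against 93, 126 and 75 counts (log2FC 1.64, SE 0.26, edgeR adjusted p = 0.00171). Pseudogenes match stretches of Ccnb1 at over 95% identity, the closest being Ccnb1-ps at 99.2% with 8 to 33 counts a library, so reads could be split between them.

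Cdk1 itself (ENSMUSG00000019942, chr10:69335146-69352938), the kinase that triggers entry into mitosis, had 398, 389 and 400 counts in MRL/lpr and 224, 146 and 181 counts in MRL/mpj libraries (log2FC 1.29, SE 0.20, edgeR adjusted p = 0.00156). Ccna2, whose cyclin A2 works from S phase to early mitosis, had 435, 411 and 331 against 157, 138 and 227 counts (log2FC 1.35 ± 0.21, SE). Its exons share 12.5% of their bases with Exosc9 on the other strand. Plk1, the Polo kinase of centrosome maturation and checkpoint exit, had 493, 423 and 321 against 157, 106 and 148 counts (log2FC 1.76 ± 0.21). Aurka, the centrosomal Aurora kinase, had 292, 335 and 225 against 135, 135 and 163 counts (log2FC 1.14 ± 0.20), the smallest rise of the group. None of the 6 overlapped between strains.

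In the chromosome structure group 5 of 6 genes rose (median log2FC 1.82), and it held both the smallest standard errors of the 38 genes and the smallest change. Mki67 (ENSMUSG00000031004, chr7:135689784-135716361), whose protein coats mitotic chromosomes and marks dividing cells, had 4134, 4299 and 3642 counts in MRL/lpr and 1000, 1025 and 1021 counts in MRL/mpj libraries (log2FC 2.16, SE 0.08, edgeR adjusted p = 3.21e-07). Top2a (ENSMUSG00000020914, chr11:98992943-99024189), the topoisomerase that untangles sister chromatids, had 2568, 2595 and 2428 against 647, 637 and 553 counts (log2FC 2.22, SE 0.10, edgeR adjusted p = 1.14e-06). Within each strain these genes varied little, and the gap between the strains was many times that spread.

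Condensin I is a ring of Smc2 and Smc4 closed by Ncaph, with the HEAT-repeat subunits Ncapd2 and Ncapg, and its subunits did not move alike. Ncapd2 (ENSMUSG00000038252, chr6:125168007-125191701) had 1862, 1905 and 2052 counts in MRL/lpr and 756, 861 and 762 counts in MRL/mpj libraries (log2FC 1.47, SE 0.12, edgeR adjusted p = 3.03e-05). Ncapg (ENSMUSG00000015880, chr5:45669919-45700546) had 254, 242 and 189 against 66, 23 and 4 counts (log2FC 3.04, SE 0.76, edgeR adjusted p = 0.0315). The MRL/lpr libraries of Ncapg lay close together, while the MRL/mpj libraries ranged from 66 counts down to 4. Without MRL/mpj replicate 1 its log2FC was 4.22, and it did not pass the test without any 1 of the MRL/lpr libraries, without MRL/mpj replicate 2 (adjusted p = 0.0811 to 0.124) or with no filter on low counts (0.0901), with a range of 4.25e-06 to 0.124 over 17 alternatives. Exons of Ncapg share 13.4% of their bases with Lcorl on the opposite strand.

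The core SMC subunits had the smallest fold changes of the 38 genes. Smc4 had 1522, 1861 and 1050 counts in MRL/lpr and 1006, 983 and 1063 counts in MRL/mpj libraries (log2FC 0.70, SE 0.15, edgeR adjusted p = 0.00986). Its MRL/lpr replicate 3 was within the counts of MRL/mpj mice, at 25.1 CPM against 19.6 to 20.4 CPM after TMM scaling, and limma on log2(FPKM + 0.1) gave adjusted p = 0.0837, in a range of 4.16e-04 to 0.0870 over the alternatives. Smc2 had 1288, 1181 and 838 against 742, 836 and 1044 counts, its strains overlapped, and it did not pass the test (log2FC 0.50, SE 0.16, edgeR adjusted p = 0.0505). DESeq2 gave adjusted p = 0.0292 for it, and leaving out MRL/lpr replicate 3 gave 0.0155, in a range up to 0.209, so its call depended on these settings. Ncaph, which is not among the 38 genes, fell in MRL/lpr mice, with 1051, 1144 and 945 against 1520, 1557 and 1728 counts (log2FC -0.44, SE 0.09, edgeR adjusted p = 0.00903). Condensin II shares Smc2 and Smc4, and its own subunits, chosen after their values were seen, did not pass the test: Ncapd3 had a log2FC of 0.08, Ncapg2 of 0.20 and Ncaph2 of 0.16.

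Per length, in the deposited FPKM (counts scaled to gene length and depth), Ncapg was the scarcest condensin I subunit in both strains, at 0.603 ± 0.0737 FPKM in MRL/lpr and 0.0767 ± 0.0764 FPKM in MRL/mpj mice (SD, n = 3). Ncapd2 was at 5.85 ± 0.517 and 2.29 ± 0.222 FPKM. Ncaph was at 4.58 ± 0.295 and 6.75 ± 0.396 FPKM, so that it was the highest of the 5 subunits in MRL/mpj mice and lay below Ncapd2 and Smc4 in mean level in MRL/lpr mice. In MRL/lpr mice Smc4, at 5.32 ± 1.32 FPKM, was within 1 SD of both, so its place in that order is not resolved, while the libraries of Ncapd2 (5.49 to 6.44 FPKM) and Ncaph (4.32 to 4.90 FPKM) did not overlap.

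**Figure D3:**
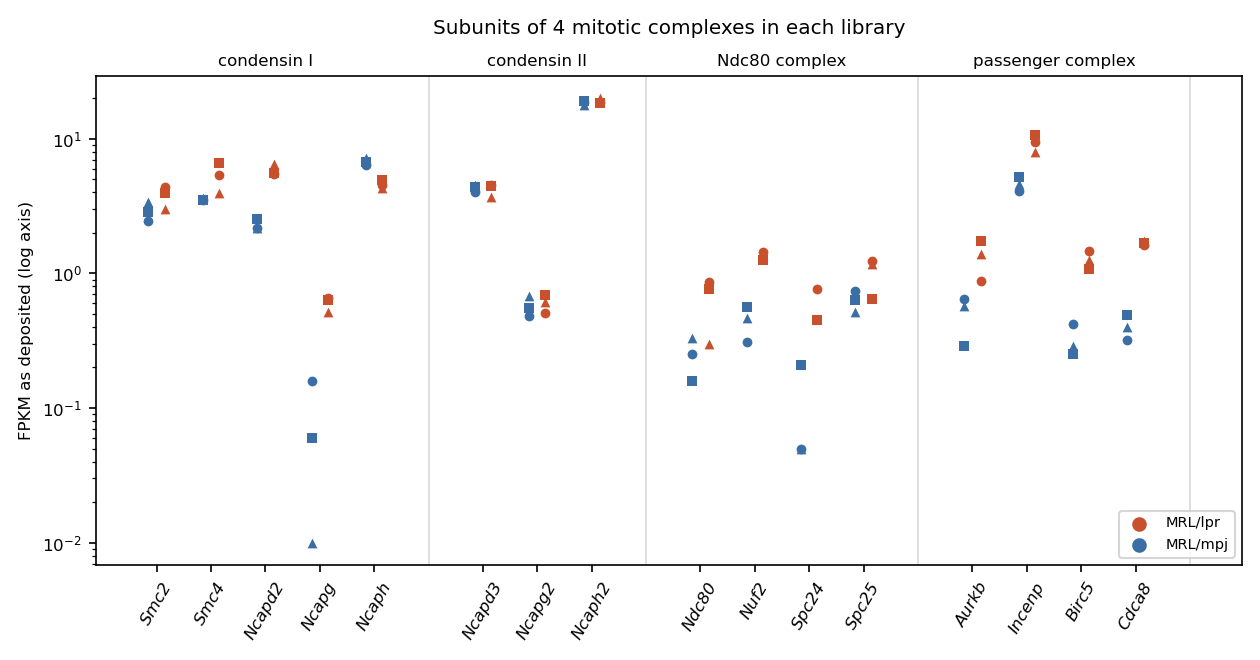
Deposited FPKM (log axis) of the subunits of condensin I, condensin II, the Ndc80 complex and the chromosomal passenger complex in each library; orange is MRL/lpr, blue is MRL/mpj, and circle, square and triangle are replicates 1, 2 and 3. Within condensin I the strains are far apart for Ncapd2 and Ncapg, close for Smc2 and Smc4, and reversed for Ncaph.

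In the centromere and kinetochore group 5 of 6 genes rose (median log2FC 1.60). Cenpe (ENSMUSG00000045328, chr3:135212537-135273611), a kinesin that carries chromosomes to the spindle equator, had 786, 910 and 519 counts in MRL/lpr and 191, 87 and 155 counts in MRL/mpj libraries (log2FC 2.52, SE 0.28, edgeR adjusted p = 2.85e-04). Its lowest MRL/lpr count was 519 and its highest MRL/mpj count 191. Cenpf, a large coiled-coil protein of the outer kinetochore, had 1243, 1328 and 1195 against 428, 331 and 411 counts (log2FC 1.86, SE 0.12, edgeR adjusted p = 8.84e-06). Cenpa, the histone H3 variant that marks the centromere, had 1067, 1251 and 690 against 545, 651 and 837 counts (log2FC 0.73, SE 0.20, edgeR adjusted p = 0.0326). MRL/lpr replicate 3 of Cenpa, at 690 counts, was below MRL/mpj replicate 3, at 837 counts, and the order turned only after TMM scaling, at 16.5 and 16.1 CPM. Cenpa did not pass the test in 8 of 17 alternatives, among them scaling by library size only (adjusted p = 0.0745), with a range of 0.00482 to 0.140.

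The Ndc80 complex, which grips microtubules, consists of Ndc80, Nuf2, Spc24 and Spc25, and 3 of these 4 genes passed the test. Nuf2 had 495, 433 and 442 counts in MRL/lpr and 108, 191 and 170 counts in MRL/mpj libraries (log2FC 1.72, SE 0.23, edgeR adjusted p = 7.19e-04). Ndc80 had 303, 271 and 101 against 90, 58 and 121 counts (log2FC 1.48, SE 0.40, edgeR adjusted p = 0.0281), and its MRL/lpr replicate 3 lay within the MRL/mpj counts and just above them after TMM scaling (2.42 against 2.33 CPM). Without that library the log2FC of Ndc80 was 1.81 (adjusted p = 0.00409), and without MRL/lpr replicate 1 or 2 or MRL/mpj replicate 1 or 2 it did not pass the test (adjusted p = 0.0908 to 0.103). Ndc80 did not pass in 7 of 17 alternatives, and over all 17 its adjusted p ran from 0.00323 to 0.128. The transcript 2700099C18Rik shares 95.05% identity with Ndc80 over 303 bases, and had 106, 112 and 48 against 51, 35 and 30 counts.

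Spc25 had 214, 114 and 195 against 134, 111 and 95 counts, with MRL/lpr replicate 2 inside the MRL/mpj range, and it did not pass the test (log2FC 0.81, SE 0.31, edgeR adjusted p = 0.102). Of the alternatives run it passed only without that library (log2FC 1.05, adjusted p = 0.0306), and its adjusted p reached 0.262 in others. Its partner Spc24, no member of the list and chosen after its values were seen, had 108, 63 and 61 against 8, 32 and 8 counts (log2FC 2.42, SE 0.62, edgeR adjusted p = 0.0225). Without MRL/mpj replicate 2 the log2FC of Spc24 was 3.43.

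All 5 checkpoint kinases and partners of the APC/C rose (median log2FC 1.79). Bub1b (ENSMUSG00000040084, chr2:118598211-118641591), the BubR1 subunit of the checkpoint complex that holds Cdc20, had 890, 828 and 730 counts in MRL/lpr and 225, 169 and 223 counts in MRL/mpj libraries (log2FC 2.16, SE 0.15, edgeR adjusted p = 1.17e-05). Ttk, the Mps1 kinase at the head of the checkpoint, had 293, 266 and 249 against 70, 32 and 61 counts (log2FC 2.49, SE 0.30, edgeR adjusted p = 3.64e-04). Bub1, which recruits checkpoint proteins and shugoshin, had 411, 386 and 171 against 82, 110 and 118 counts (log2FC 1.79, SE 0.31, edgeR adjusted p = 0.00317). MRL/lpr replicate 3 of Bub1 was at 4.09 CPM, below the 8.20 and 8.74 CPM of the other MRL/lpr libraries and above the highest MRL/mpj library at 2.27 CPM.

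Cdc20, the mitotic activator of the APC/C, had 526, 529 and 545 counts in MRL/lpr and 178, 207 and 157 counts in MRL/mpj libraries (log2FC 1.74 ± 0.18, SE). Ube2c, the ubiquitin-conjugating enzyme that works with it, had 249, 284 and 256 against 92, 91 and 80 counts (log2FC 1.76 ± 0.21). Each MRL/lpr library of both genes was over 2 times the highest MRL/mpj library. The exons of Ube2c share 22.8% of their bases with Tnnc2 on the opposite strand, which had 0 counts in every library. The core of the APC/C did not rise with its partners: of 15 subunits 0 were higher and 1, Cdc16, was lower (log2FC -0.34, edgeR adjusted p = 0.0315), with a median log2FC of -0.13.

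The chromosomal passenger complex corrects faulty attachments and later guides the furrow, and 4 of its 4 subunits rose (median log2FC 1.80). Incenp (ENSMUSG00000024660, chr19:9872296-9899551), its scaffold, had 2217, 2476 and 1753 counts in MRL/lpr and 981, 1209 and 1118 counts in MRL/mpj libraries (log2FC 1.13, SE 0.12, edgeR adjusted p = 1.70e-04). It had the highest mean level of the 38 genes per length, at 9.34 ± 1.31 and 4.62 ± 0.555 FPKM. The other subunits were lower in level and larger in fold. Cdca8, or borealin, had 458, 475 and 459 against 94, 137 and 116 counts (log2FC 2.18, SE 0.20, edgeR adjusted p = 6.88e-05), and Birc5, or survivin, had 269, 198 and 215 against 80, 47 and 57 counts (log2FC 2.07, SE 0.28, edgeR adjusted p = 6.99e-04). Aurkb, the kinase of the complex, had 146, 280 and 210 against 107, 47 and 96 counts (log2FC 1.53, SE 0.36, edgeR adjusted p = 0.0152). Aurkb did not pass the test in 2 of 17 alternatives, among them the fit without MRL/lpr replicate 2 (adjusted p = 0.0610, the highest of the alternatives, with 9.22e-04 the lowest).

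All 5 spindle motors and microtubule binders rose (median log2FC 1.73). Kif11, the kinesin that pushes spindle poles apart, had 454, 439 and 382 counts in MRL/lpr and 165, 121 and 176 counts in MRL/mpj libraries (log2FC 1.64 ± 0.19, SE). Tpx2, which activates Aurora A on the spindle, had 724, 738 and 518 against 202, 192 and 128 counts (log2FC 2.09 ± 0.21). Nusap1, a microtubule bundler, had 354, 373 and 297 against 104, 111 and 132 counts (log2FC 1.73 ± 0.19). The libraries of these genes were well apart between strains. Hmmr, a microtubule-binding spindle protein also known as a hyaluronan receptor, had 380, 365 and 163 against 80, 97 and 88 counts (log2FC 1.93 ± 0.30), with MRL/lpr replicate 3 at 3.90 CPM between the other MRL/lpr libraries (7.75 and 8.08 CPM) and the highest MRL/mpj library (1.94 CPM). Kif2c, a kinesin that depolymerizes microtubules, rose least of the group, with 338, 341 and 340 against 172, 162 and 214 counts (log2FC 1.08 ± 0.18).

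All 6 central spindle and cytokinesis genes rose (median log2FC 1.63). Centralspindlin is made of Kif23 and Racgap1. Kif23 had 668, 790 and 580 counts in MRL/lpr and 243, 209 and 273 counts in MRL/mpj libraries (log2FC 1.66 ± 0.16, SE), and Racgap1 had 1075, 1027 and 888 against 502, 327 and 364 counts (log2FC 1.50 ± 0.16). Neither partner overlapped between strains. Prc1, which cross-links the central spindle, had 674, 585 and 540 against 193, 192 and 140 counts (log2FC 1.95 ± 0.18). Kif20a, the kinesin that brings the passenger complex to it, had 479, 503 and 364 against 85, 115 and 144 counts (log2FC 2.14 ± 0.23). Anln, a scaffold of the furrow, had 460, 403 and 290 against 130, 112 and 185 counts (log2FC 1.60 ± 0.23). Ect2, which activates RhoA at the furrow, had 277, 398 and 241 against 142, 158 and 149 counts and the smallest rise of the group (log2FC 1.19 ± 0.22). Exons of Kif20a share 29.3% of their bases with Cdc23 on the opposite strand, and the strand setting of the counting is not given in the sources used here.

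**Figure D4:**
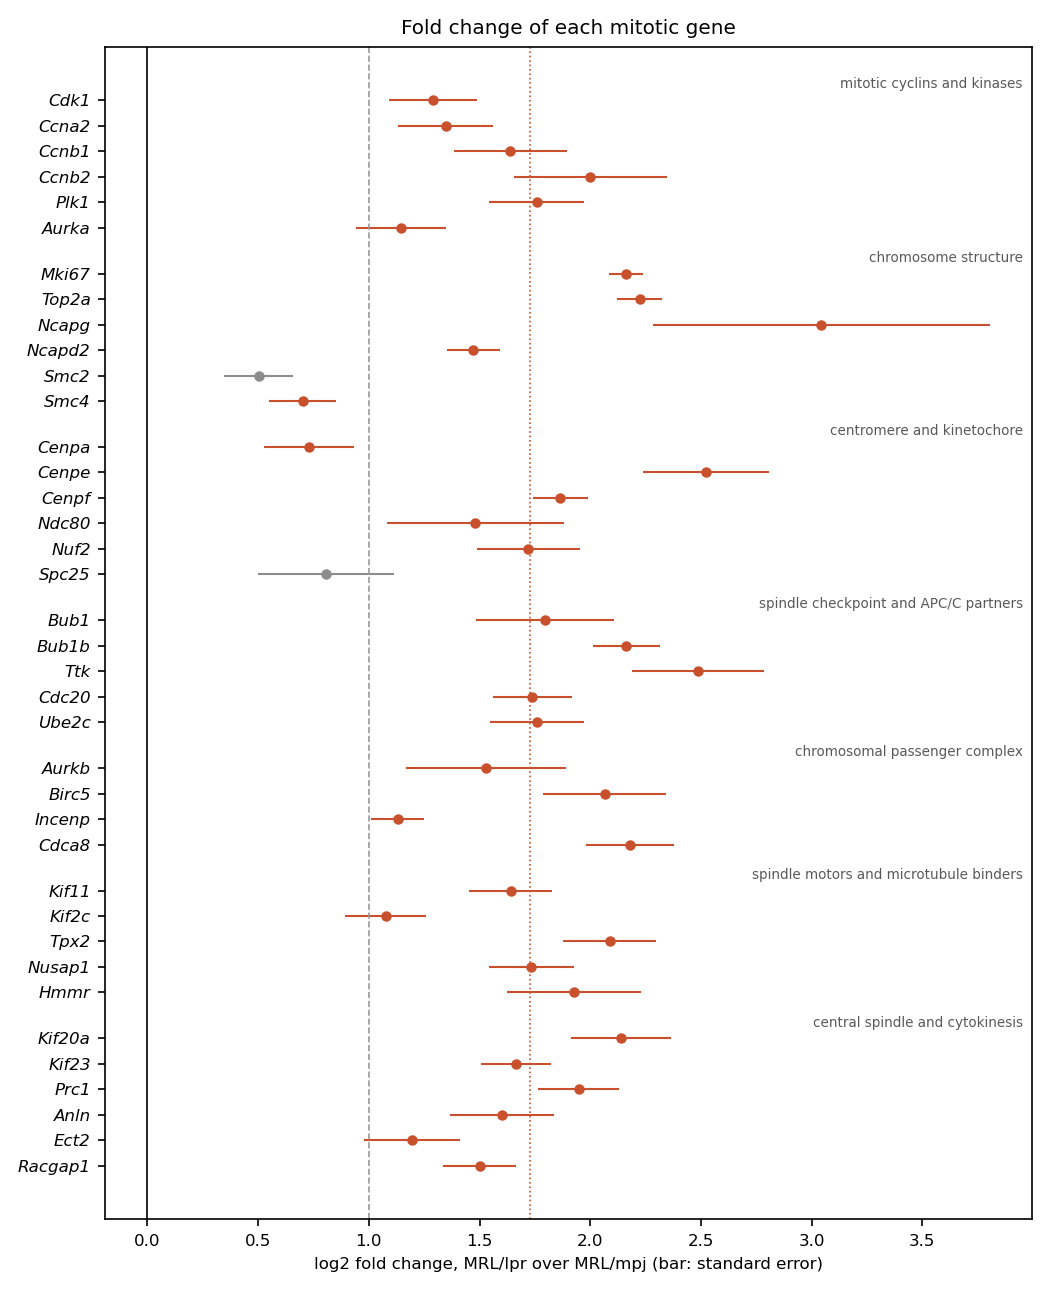
The log2FC of MRL/lpr over MRL/mpj for each of the 38 genes by role, with standard error bars; orange genes passed the test and grey ones did not, the dashed line is a log2FC of 1 and the dotted line the median of 1.73. Smc2, Smc4, Cenpa and Spc25 lie below a log2FC of 1.

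Among themselves the 38 genes varied in level and in how the libraries of MRL/lpr mice spread. In MRL/mpj mice 26 of the 38 had a mean below 1 FPKM and in MRL/lpr mice 3 did, and the means ran from 0.0767 to 4.62 FPKM and from 0.603 to 9.34 FPKM. In MRL/lpr replicate 3, 6 genes were at or below 0.75 of the mean CPM of the other MRL/lpr libraries. They were Ndc80 (0.396), Bub1 (0.483), Hmmr (0.493), Cenpa (0.670), Cenpe (0.689) and Smc4 (0.699). In the same library 31 genes were between 0.75 and 1.25 of that mean, and 1, Spc25, was above (1.34). Without MRL/lpr replicate 3, 36 of the 38 genes passed the test, as with it, but Smc2 passed (adjusted p = 0.0155) and Ncapg did not (adjusted p = 0.0855).

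The 38 genes were set beside other cell cycle genes listed by process. Of the spindle and cytokinesis genes outside the list, 30 of 38 were higher and 0 lower, with a median log2FC of 1.64. The most abundant that rose were Ckap2l, Tacc3 and Cit, with log2FC of 2.29, 0.65 and 0.69. Kif14 and Aspm, a midbody kinesin and a spindle pole protein chosen after their values were seen, rose by 2.85 and 2.37 on the log2 scale. Of the kinetochore and centromere genes outside the list, 12 of 38 were higher and 1 lower, with a median of 0.48. Hjurp, the chaperone that loads Cenpa, rose (log2FC 0.78), as did Cenpo (0.66), Knstrn (1.47) and the microtubule anchor Knl1 (1.31, chosen after its values were seen). Itgb3bp, a centromere protein, fell (log2FC -0.97). The checkpoint genes Mad2l1 and Bub3 did not pass the test (log2FC 0.47 and 0.17).

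In the remaining condensin and cohesin genes 3 of 16 were higher and 1, Ncaph, was lower, with a median log2FC of 0.12. Those that rose were separase Espl1 (1374, 1937 and 1551 against 770, 840 and 1239 counts, log2FC 0.95, SE 0.19, edgeR adjusted p = 0.00812), sororin Cdca5 (log2FC 1.55) and the cohesin acetyltransferase Esco2 (1.66), which act on cohesin only in cycling cells. The other 12 genes of that list did not pass the test. S phase replication genes had 16 of 34 higher, 0 lower and a median log2FC of 0.37. The most abundant that rose were the helicase subunits Mcm5 (log2FC 0.96), Mcm2 (0.49) and Mcm6 (0.36). Rrm2, the ribonucleotide reductase subunit of S phase, rose by 1.65, and the sliding clamp Pcna did not pass the test (0.16), both chosen after their values were seen.

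Regulators named for this programme had 7 of 18 higher, 0 lower and a median log2FC of 0.27. Foxm1, the transcription factor of the mitotic genes, had 1177, 812 and 337 counts in MRL/lpr and 168, 154 and 159 counts in MRL/mpj libraries (log2FC 2.42, SE 0.38, edgeR adjusted p = 0.00393). Its lowest MRL/lpr library was replicate 3, which was still above each MRL/mpj library. Mybl2, which encodes B-Myb, had 133, 155 and 123 against 183, 77 and 94 counts, overlapped between strains and did not pass the test (log2FC 0.39, SE 0.34, edgeR adjusted p = 0.488). The DREAM subunits Rbl1 (log2FC 0.59) and Lin9 (0.97) and the activators E2f2 (0.73) and E2f1 (0.88) rose. Foxm1, Mybl2 and E2f1 were chosen after their values were seen. CHR letters were in 6 of 13 promoter windows of these regulators (46.2%), in 22 of 32 (68.75%) of the spindle genes outside the list, in 5 of 26 (19.2%) of the S phase genes and in 2 of 14 (14.3%) of the core APC/C genes. They were in 14 of 33 (42.4%) of the other kinetochore and centromere genes and in 6 of 13 (46.2%) of the other condensin and cohesin genes. For G1 cyclins and kinases it was 0 of 6, and for inhibitors of cyclin-dependent kinases 1 of 6.

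**Figure D5:**
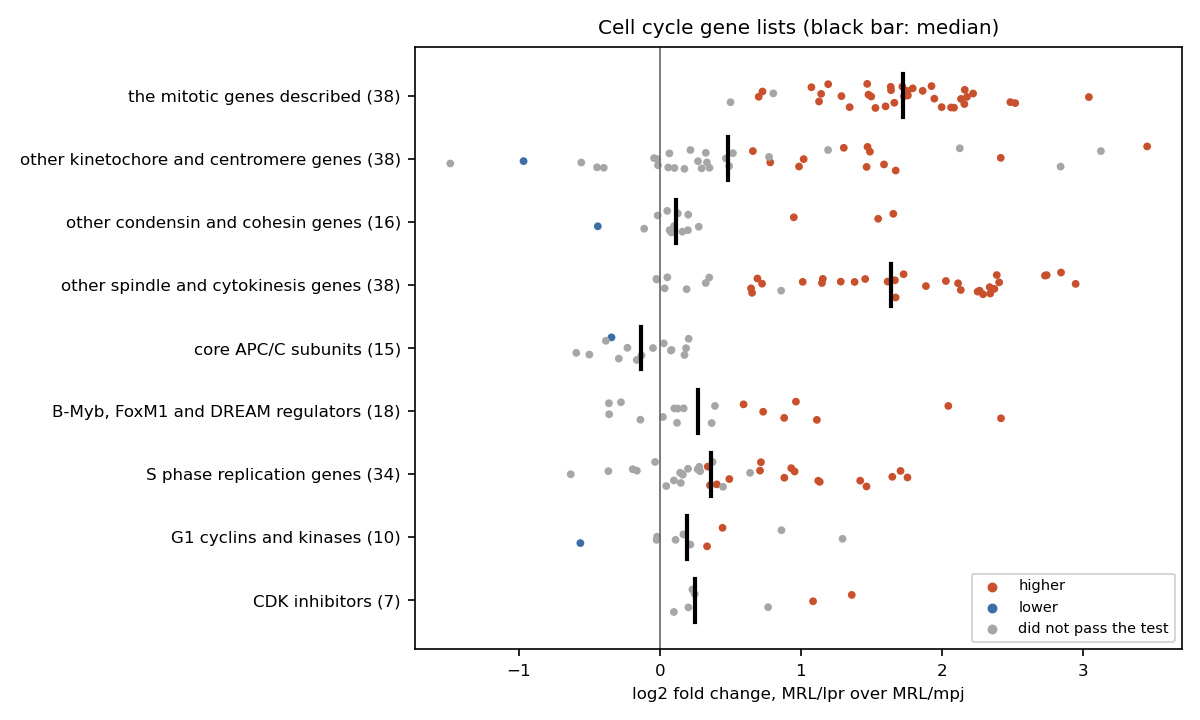
The log2FC of MRL/lpr over MRL/mpj for the 38 genes and for 8 lists of other cell cycle genes, with 1 point a gene, the number of genes tested in brackets and a black bar at the median; orange points were higher, blue lower, and grey did not pass the test. The medians are 1.73 for the 38 genes, 1.64 for other spindle genes and between -0.13 and 0.48 for the other lists.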

How the data were processed

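CD11b-selected brain microglia of MRL/lpr and MRL/mpj mice were sequenced as rRNA-depleted, strand-specific libraries, 3 per strain. The authors deposited raw whole-number counts for each Ensembl gene and, in separate files, FPKM values. The submitters' processing notes name cutadapt 1.9.3, HISAT2 2.0.4, Cuffdiff 2.2.1, Cufflinks and GRCm38, with no roles. The counting tool, its strand setting and the annotation are not given in the sources used here. In each library more genes had 4 counts (1138 to 1288) than 3 (320 to 415) or 5 (211 to 261), so 1 count may not be 1 independent read pair.

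Symbols came from GENCODE M21 (GRCm38), which matched 55141 of 55401 identifiers. The comparison of strains used edgeR 4.0.16 (R 4.3.3, filterByExpr with a minimum count of 10 and a total of 15, TMM, robust quasi-likelihood test, no covariates, common coefficient of variation 0.26), with Benjamini-Hochberg adjustment over the 19554 genes tested. A gene was called at an adjusted p under 0.05. With 3 libraries against 3 an exact two-sided permutation test cannot go below 0.1. The alternatives were DESeq2 1.42.0, other scalings, count filters and dispersions, glmTreat, counts divided by 4, limma 3.58.1 on log2(FPKM + 0.1) or log2(FPKM + 1), the replicate number as a block, and each library left out in turn. The 17 alternatives cited for single genes leave out glmTreat, which tests for at least a 2-fold difference. The steps were tested on simulated data.

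The 38 genes and the lists were chosen with earlier results of these data known, so no list has a test. All 38 are reported. Of each other list, the 3 genes of highest mean count that passed in each direction are named, with every gene of a list of 10 or fewer, and genes named outside this rule are said to be so. Printed promoters are the 2 with CHR letters nearest the start in each of the first 3 groups. Related transcripts were sought with blastn 2.17.0 (at least 95% identity over 200 bases).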

Additional observations from a re-analysis of the deposited data

How the results depend on the processing

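The labels number the replicates 1 to 3 in both strains. Same-numbered libraries did not deviate together (correlations of -0.05, -0.03 and -0.06), and 0 of the 6 libraries correlated best with the library of its own number. These values showed no pairing by number, but 3 libraries a strain are too few to settle whether there was one. With the replicate block Aurkb (adjusted p = 0.0512), Cenpa (0.0773) and Ndc80 (0.0885) did not pass the test, 33 of the 38 mitotic genes were higher, 0 core APC/C subunits were lower, and 1754 genes were higher and 1309 lower in all.

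The number of the 38 genes called higher was 33 to 37 under each of the 17 alternatives other than glmTreat, and 0 were lower under each. The number at least 2-fold higher was 34, and was 21 with glmTreat, 8 with limma on log2(FPKM + 1), where low genes are compressed by construction, and 31 to 34 with a library left out. Their median log2FC of 1.73 was 1.60 with scaling by library size only, 1.43 with log2(FPKM + 0.1), 0.76 with log2(FPKM + 1) and 1.68 to 1.74 with a library left out. Scaling by library size only moved the median of all genes from -0.01 to -0.13, and calls in all from 2178 higher and 1772 lower to 1634 and 2790. Limma on log2(FPKM + 0.1) gave 1593 and 2421, and on log2(FPKM + 1) 1586 and 2441. Without MRL/mpj replicate 1, 1177 genes were lower, and over the libraries left out 1177 to 1971. Genes at least 2-fold higher numbered 379 with glmTreat and 352 with log2(FPKM + 1) in place of 914, and lower ones 237 and 266 in place of 716.

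Among other kinetochore genes 7 to 12 were higher with a library left out (7 without MRL/lpr replicate 1) and 0 to 2 lower, and 3 were lower with library size only and 2 with either FPKM scale. Core APC/C subunits lower numbered 2 with DESeq2, 4 with library size only, 2 with log2(FPKM + 0.1) and 0 to 1 with a library left out, and 0 to 1 were then higher. On either FPKM scale 4 regulators were higher, and 1 was lower there and with library size only. S phase genes higher numbered 8 and 9 on the FPKM scales, and 10 to 17 with a library left out, the fewest without MRL/mpj replicate 2 or 3. G1 genes higher numbered 0 with library size only and on both FPKM scales, and 0 to 3 higher and 0 to 1 lower with a library left out. Signs turned in genes that did not pass the test. With library size only, log2(FPKM + 0.1) and log2(FPKM + 1), Ccnh was at -0.00948, -0.0108 and -0.00795, Cdkn2b at -0.0180, -0.0214 and -0.0164, and Ncapd3 at -0.0381, -0.0384 and -0.0312. With a library left out Ccnd1 was at -0.0405 to 0.00411, Cdk4 at -0.0756 to 0.0396, Cdkn2a at -0.353 to 1.18 and Cdkn2b at -0.0220 to 0.240. Of the other genes named, those that passed the test lost it in 8 of 17 alternatives for Knl1, 7 for E2f1, 6 for Mcm6 and for Ccnd2, 5 for Lin9 and for Cdc16, 4 for Tacc3, Cdk6 and Cdk7, 3 for Spc24 and Itgb3bp, and 2 for Cit, Mcm2 and Rbl1, and Ccne1 passed it in 7. Where no cause is given, the cause was not tested. Genes with few counts in MRL/mpj libraries, such as Ncapg and Spc24, have folds that depth limits.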

Other observations

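Genes listed as G1 cyclins and kinases were set apart from the mitotic ones. Of 10 G1 cyclins and kinases 2 rose, Ccnd2 (log2FC 0.45, edgeR adjusted p = 0.0135) and Cdk6 (0.34, edgeR adjusted p = 0.0130), and 1 fell, Cdk7 (-0.56), the catalytic subunit of the kinase that activates other cyclin-dependent kinases. Ccnd1 (log2FC -0.02), Cdk4 (-0.02), Ccnh (0.11), Ccne2 (0.17), Cdk2 (0.22), Ccnd3 (0.86) and Ccne1 (1.30) did not pass the test. Ccne1, the cyclin of the step into S phase, had 61, 146 and 113 counts in MRL/lpr and 47, 37 and 64 counts in MRL/mpj libraries (edgeR adjusted p = 0.0502).

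Of 7 inhibitors of cyclin-dependent kinases 2 rose and 0 fell. Cdkn1a, the p21 inhibitor induced by p53 among others, had 19600, 17192 and 15536 counts in MRL/lpr and 7646, 7266 and 8057 counts in MRL/mpj libraries (log2FC 1.36, SE 0.07, edgeR adjusted p = 2.37e-06). Cdkn2c, the p18 inhibitor of Cdk4 and Cdk6, had 682, 625 and 530 against 282, 378 and 312 counts (log2FC 1.09, SE 0.16, edgeR adjusted p = 0.00128). Cdkn1b (log2FC 0.20), Cdkn1c (0.25), Cdkn2a (0.23), Cdkn2b (0.10) and Cdkn2d (0.77) did not pass the test.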
